A study of Mus musculus with 4 samples.

Results

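Proteasome subunit genes were followed across 4 cultures of mouse fetal liver blood progenitors, with or without Btg1 and with or without the leukemia fusion ETV6-RUNX1. Members were taken by a rule on names that uses no values, though earlier results of these data were known when they were chosen. Every gene name of the array table that starts with PSM, a letter from A to G and a number was taken. This gave 43 genes of 18113. They fell into 7 alpha and 7 constitutive beta subunits of the 20S core, 3 immunoproteasome subunits, 6 ATPases and 10 other subunits of the 19S regulatory particle, 4 separate activators, 1 inhibitor and 5 assembly chaperones. All names matched a RefSeq symbol. Psmd3, Psma8, Psmb11, Psmg1 and Psmg4 were not analysed here.

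Progenitors enriched with magnetic beads for c-Kit and against the erythroid marker Ter119 came from E13.5 livers of C57BL6/J embryos, either wild type or Btg1-/-. After 24 hours of expansion they were infected with a control retrovirus or with one for ETV6-RUNX1, kept for 48 hours, and cultured for 12 days with 10 ng/ml FLT-3L, 20 ng/ml IL-7 and 100 ng/ml SCF. Both genotypes received either virus, which makes 4 groups, and the cells of both control groups had therefore also been infected. Each group had 1 array, an Illumina MouseRef-8 hybridised with biotin-labelled cRNA, and the labels give neither the number of embryos in a culture nor the share of cells that took up virus. No difference below therefore has a replicate check, none could be tested, and each describes the 2 cultures compared.

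The proteasome is the main protease for ubiquitin-tagged proteins in the nucleus and cytosol. Its 20S core is a barrel of stacked rings, in which outer alpha rings gate the entry and the inner beta rings hold the active sites. The 19S particle caps the core, binds ubiquitin chains, removes them and unfolds the substrate with a ring of ATPases. In lymphoid cells, and in other cells exposed to interferon, the beta subunits Psmb8, Psmb9 and Psmb10 can replace the catalytic subunits Psmb5, Psmb6 and Psmb7 and so form the immunoproteasome, known for making peptides for MHC class I. Dividing blood progenitors depend on proteasome activity to pass through the cell cycle.

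The values are log2 levels normalized by the authors with RMA, which makes the distributions of the arrays alike. A level of 6 served as a floor, below which a value gives only a bound. Genes with a mean level over the 4 arrays at or above the floor entered the comparisons, 38 of the 43 members among 5862 genes. Values below the floor were raised to it. Psma1, Psma3 and Psma6 of the alpha ring, the 19S scaffold subunit Psmd2 and the chaperone Psmd5 lay below the floor on all 4 arrays, between 2.36 and 5.50, and are not discussed further. The alpha subunits and Psmd2 are parts that a working proteasome needs, so these low values may not measure the genes and are no evidence of absence. Levels of different genes are not compared with each other: differences are between arrays for the same gene, and linear levels are summed over genes only for lists of cell type markers. A "spread" is given with single genes, as the robust standard deviation of the same log2 difference over the gene and its neighbours in mean level, 250 to each side. Real differences of the neighbours enter it, and variation between cultures does not.

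Upstream sequences of members are shown because the text returns to them where groups of members differ in the same direction. The 250 bases before the transcript start were taken from RefSeq, build GRCm38.p6, and are written 5′ to 3′ on the strand of the gene. Psmd12 (chr11:107479278-107479527, plus strand) and Psme3 (chr11:101315963-101316212, plus strand) had the 2 largest lower values with ETV6-RUNX1 in Btg1-/- cells. Psmb5 (chr14:54617996-54618245, minus strand) and Psmb8 (chr17:34197945-34198194, plus strand) code for the exchangeable beta subunits that differed most from each other. Capitals mark matches to any of 5 motifs on either strand. These are TGACNNNGC of the antioxidant response element bound by NFE2L1 and NFE2L2, CCAAT of NF-Y, CCGGAAG of ETS factors, TGTGGT of RUNX factors and the IRF-type element, GAAA repeated after 2 other bases.
Psmd12: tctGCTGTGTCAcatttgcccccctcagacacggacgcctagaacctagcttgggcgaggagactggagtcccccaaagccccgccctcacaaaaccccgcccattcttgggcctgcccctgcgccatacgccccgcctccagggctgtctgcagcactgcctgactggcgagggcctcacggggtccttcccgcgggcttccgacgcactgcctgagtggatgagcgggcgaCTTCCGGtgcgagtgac
Psme3: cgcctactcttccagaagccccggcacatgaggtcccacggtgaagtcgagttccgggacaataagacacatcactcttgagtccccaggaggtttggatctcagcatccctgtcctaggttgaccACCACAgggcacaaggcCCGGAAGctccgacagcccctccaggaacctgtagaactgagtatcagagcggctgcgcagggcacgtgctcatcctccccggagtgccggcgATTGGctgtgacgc
Psmb5: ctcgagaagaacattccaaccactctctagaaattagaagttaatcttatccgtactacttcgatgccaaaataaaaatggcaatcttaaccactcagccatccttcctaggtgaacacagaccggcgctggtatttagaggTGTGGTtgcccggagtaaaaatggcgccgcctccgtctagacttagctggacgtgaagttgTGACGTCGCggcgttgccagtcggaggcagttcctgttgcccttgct
Psmb8: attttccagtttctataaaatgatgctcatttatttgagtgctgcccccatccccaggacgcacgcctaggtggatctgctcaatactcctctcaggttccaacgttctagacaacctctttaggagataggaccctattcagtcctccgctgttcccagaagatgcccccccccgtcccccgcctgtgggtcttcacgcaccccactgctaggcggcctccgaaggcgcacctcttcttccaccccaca
Psmd12 held an antioxidant response match 247 bases before the start and an ETS match 17 bases before it, both on the opposite strand. Psme3 held 1 NF-Y, 1 ETS and 1 RUNX match, Psmb5 held 1 antioxidant response and 1 RUNX match, and Psmb8 held none of the 5.

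**Figure D1:**
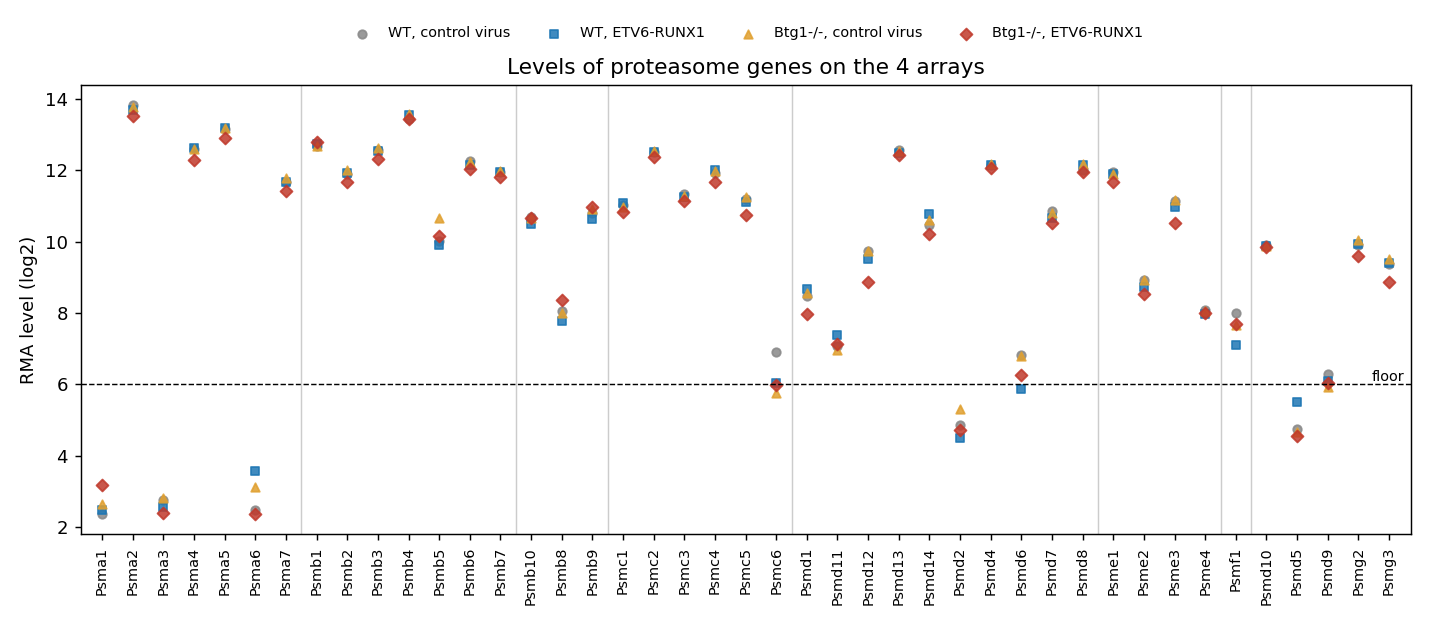
RMA log2 level (vertical axis) of each of the 43 proteasome genes (horizontal axis, grouped by role, with grey lines between groups) on the 4 arrays, 1 point per array. The dashed line is the floor of 6. The points of a gene lie close together for most members, and 5 genes lie below the floor on all arrays.

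Most members differed little between the cultures, as the plot of levels by gene shows. With the floor applied, the range of a member over the 4 arrays had a median of 0.34 on the log2 scale, against 0.39 over all 5862 genes. These medians are not for genes of like level. Of the 38 members 25 had a mean level of at least 10, and genes at that level had narrower differences than all genes. The range stayed under 0.5 in 27 of 38 members and reached 1 in none, counts that were not made over all genes. Within these small differences the culture with both lesions stood out: 26 of 38 members had their lowest deposited level on the array of Btg1-/- cells with ETV6-RUNX1, as did 34.6% of all genes. Of the 26 constitutive core and 19S subunits, 20 had it there. The Btg1-/- control held the highest level of 16 members, beside 24.7% of all genes, and the wild-type control that of 13, beside 22.9%. The culture with both lesions held the highest level of 3 members, beside 33.8% of all genes.

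The sizes have to be read against the arrays as a whole. Among the 1535 genes whose mean level reached 10, log2 differences had a robust standard deviation of 0.120 between the controls and 0.135 between the wild-type cultures. Any comparison of 2 arrays that used Btg1-/- cells with ETV6-RUNX1 was wider, at 0.240 to 0.296. Btg1, which the labels give as knocked out, was lower in both Btg1-/- cultures, at 9.02 with control virus and 9.97 with ETV6-RUNX1, than in the wild-type ones, at 11.87 and 11.97. The cells had been depleted of Ter119, and 6 of 7 erythroid markers lay below the floor on all 4 arrays. Hbb-b1 was the exception, between 6.26 and 7.07. Only 5869 to 5900 of the 18113 genes reached the floor on an array, so the count is no measure of the depletion. Of the progenitor markers, Cd34 was below the floor with 5.89 in wild type with control virus and lay between 6.97 and 7.89 on the other arrays. Il7r did not follow it, with 6.89 and 6.87 in wild type with control virus and ETV6-RUNX1, and 6.65 and 7.60 in Btg1-/-. Ptprc lay near the floor, between 5.19 and 6.18, Flt3 was below it throughout, and Kit was not analysed here. Genes of B-cell progenitors such as Cd79b (13.23 to 13.65) and of mast cells such as Cpa3 (13.63 to 14.67) had high levels in every culture.

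ETV6-RUNX1 was first compared with the control virus in wild-type cells, to describe its effect where Btg1 is intact. The proteasome genes as a whole lay where all genes lay, with a median log2 difference of -0.03 against -0.02 over all 5862 genes. Of 38 members, 24 lay below 0, beside 54.2% of all genes. The constitutive 20S subunits ran from -0.12 (Psmb6) to 0.11 (Psmb4) with a median of 0.00, and the 15 measured 19S subunits had a median of -0.01. Single members differed more. In 3 of them the level was lower by at least 1.5-fold with ETV6-RUNX1, beside 3% of all genes, and no member was higher by as much, beside 4.49%. Lower by at least 20% were the same 3, beside 10.9%, and higher by at least 25% was 1, beside 10%. No member differed 2-fold, beside 0.358% of all genes lower and 1.89% higher.

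Psmf1, known as PI31, binds the proteasome and inhibits the core in vitro. Its levels were 7.99 in wild type with control virus, 7.10 in wild type with ETV6-RUNX1, 7.66 in Btg1-/- with control virus and 7.68 in Btg1-/- with ETV6-RUNX1. The wild-type culture with ETV6-RUNX1 was thus low, by 1.86-fold against its control (log2 difference -0.90, spread 0.28), and the other 3 cultures lay within 0.33 of each other. Psmc6, an ATPase of the 19S base, differed by -0.88 (spread 0.37) and Psmd6, a lid subunit, was at least 1.76-fold lower with its wild-type ETV6-RUNX1 value of 5.85 under the floor. Both stood near the floor. Without genes of a mean level under 8, the count of members lower by at least 1.5-fold was 0. The share of all genes at that cutoff was not computed. At a mean level of at least 10, 0 of 25 members were lower by as much, beside 4 of 1535 genes. Such values were thus rare among all genes of that level, and a count of 0 there does not set the members apart.

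The members with the largest higher values were the lid subunits Psmd11 (0.32, spread 0.34) and Psmd14 (0.30, spread 0.15). Psmd14, the deubiquitinase that cuts ubiquitin chains off the substrate, had levels of 10.46 in the wild-type control, 10.76 in the wild-type culture with the fusion, 10.61 in the Btg1-/- control and 10.21 in Btg1-/- with ETV6-RUNX1. It was thus highest in one ETV6-RUNX1 culture and lowest in the other. All 3 immunoproteasome subunits were below 0, with Psmb8 at -0.30, Psmb10 at -0.21 and Psmb9 at -0.17. The activators were below 0 as well, from -0.19 (Psme2) to -0.04 (Psme1).

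In Btg1-/- cells, constitutive proteasome genes were lower with ETV6-RUNX1 than with control virus, by small amounts in many members. The 38 members had a median of -0.23, against 0.01 over all genes. Of them 31 lay below 0, beside 48.8% of all genes. Levels were lower by at least 1.5-fold in 4 of 38 members, beside 8.44% of all genes, and by at least 20% in 13 of 38, beside 19.6%. Higher levels by at least 25% were seen in 1 member, beside 19.8%, and by at least 1.5-fold in none, beside 8.1%. No member differed 2-fold, beside 2.49% of all genes lower and 1.67% higher. Where the mean level reached 10, 23 of 25 members lay below 0, beside 783 of 1535 genes, and the medians were -0.23 and -0.01.

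**Figure D2:**
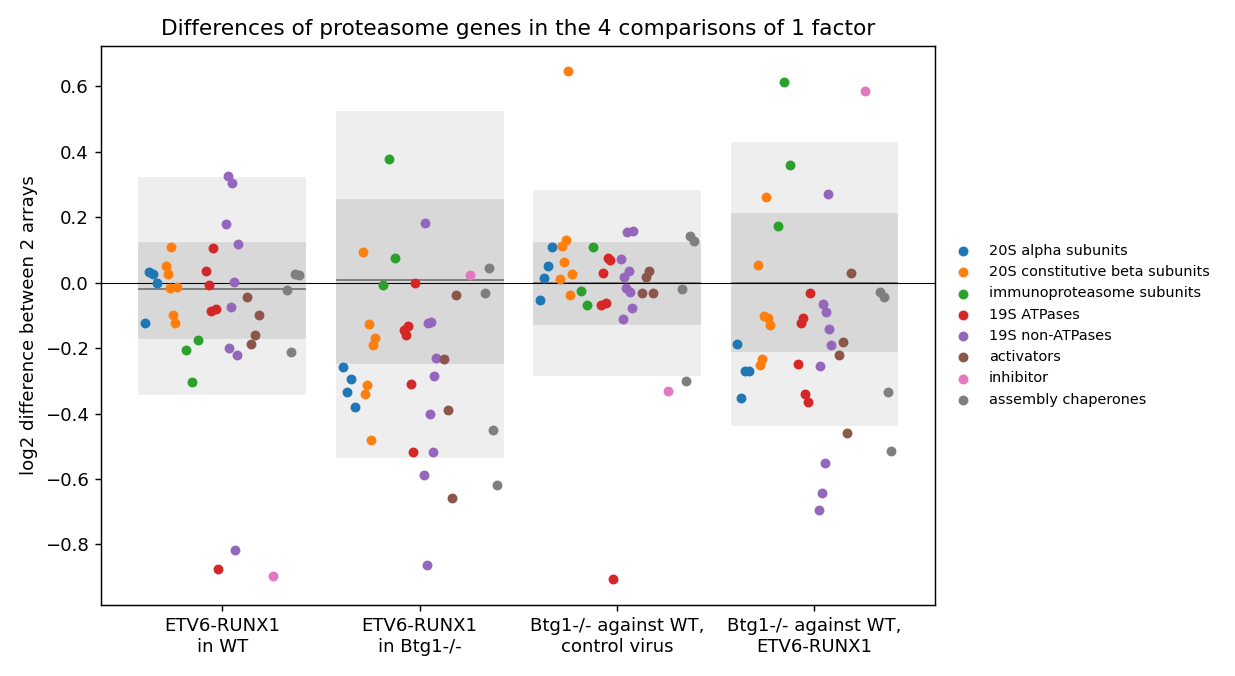
Log2 difference (vertical axis) of the 38 proteasome genes at or above the floor on average, in the 4 comparisons of 1 factor (horizontal axis), 1 point per gene, coloured by role. Light and dark grey bands give the middle 80% and 50% of all 5862 genes and the grey line their median. With ETV6-RUNX1 in Btg1-/- cells most members sit below 0, while the immunoproteasome subunits sit at -0.01, 0.08 and 0.38.

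In the alpha ring, which gates the core, all 4 measured subunits were lower, from -0.26 (Psma2) to -0.38 (Psma7). Psma7 stood at 11.68 in both wild-type cultures, 11.79 in Btg1-/- with control virus and 11.41 in Btg1-/- with ETV6-RUNX1. Psma5 had levels of 13.15, 13.17, 13.20 and 12.90 in the same order. Both genes thus had nearly level values on 3 arrays and a lower one where both lesions were present. The beta ring was more mixed, with a median of -0.19. The catalytic subunit Psmb5 had the largest difference of the constitutive core, at -0.48 (spread 0.34), and Psmb6 and Psmb7 differed by -0.19 and -0.17. The structural subunits Psmb2 (-0.34) and Psmb3 (-0.31) were lower, and Psmb4 differed by -0.13. Psmb1 differed by 0.09 and was the 1 constitutive core subunit above 0.

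In the 19S particle 13 of 15 subunits lay below 0, beside 48.8% of all genes, with a median of -0.23. The 15 include Psmc6, which was below the floor on both arrays. Psmd12, a scaffold subunit of the lid, had the largest difference of all members. Its levels were 9.72 in wild type with control virus, 9.52 in wild type with ETV6-RUNX1, 9.74 in Btg1-/- with control virus and 8.88 in Btg1-/- with ETV6-RUNX1. The culture with both lesions was the low one, 1.82-fold below its control (log2 difference -0.86, spread 0.36). Psmd1, the large scaffold of the base, had levels of 8.48, 8.66, 8.56 and 7.97 in the same order and differed by -0.59 (spread 0.37). Here too the array with both lesions was the lowest and the others lay close together.

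Of the ATPases that unfold substrates, Psmc5 differed by -0.52 (spread 0.34) and Psmc4 by -0.31, whereas Psmc1, Psmc2 and Psmc3 lay between -0.16 and -0.13. Of the other lid and base subunits, Psmd14 differed by -0.40, Psmd7 by -0.29, Psmd8 by -0.23, and Psmd13 and the ubiquitin receptor Psmd4 both by -0.12. Psmd6 differed by -0.52, near the floor. Psmd11, a lid subunit, was above 0 with 0.18 and a spread of 0.44. Psmc6 lay below the floor on both arrays of this comparison, so that its difference of 0 is no measurement.

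Outside the 26S particle, Psme3 had the largest difference. It codes for PA28 gamma, a nuclear activator that opens the core without ubiquitin or ATP. Its levels were 11.13 in wild type with control virus, 10.97 in wild type with ETV6-RUNX1, 11.17 in Btg1-/- with control virus and 10.51 in Btg1-/- with ETV6-RUNX1. This was 1.58-fold lower with ETV6-RUNX1 in Btg1-/- cells (log2 difference -0.66, spread 0.32), again with the lowest value where both lesions were present. Psme1 and Psme2, the interferon-inducible PA28 alpha and beta, differed by -0.23 and -0.39, and the activator Psme4, known as PA200, by -0.04. The chaperones Psmg3 (-0.62, spread 0.34) and Psmg2 (-0.45), which help to assemble the core, were lower, and Psmd10, a chaperone of the base also called gankyrin, differed by -0.03.

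**Figure D3:**
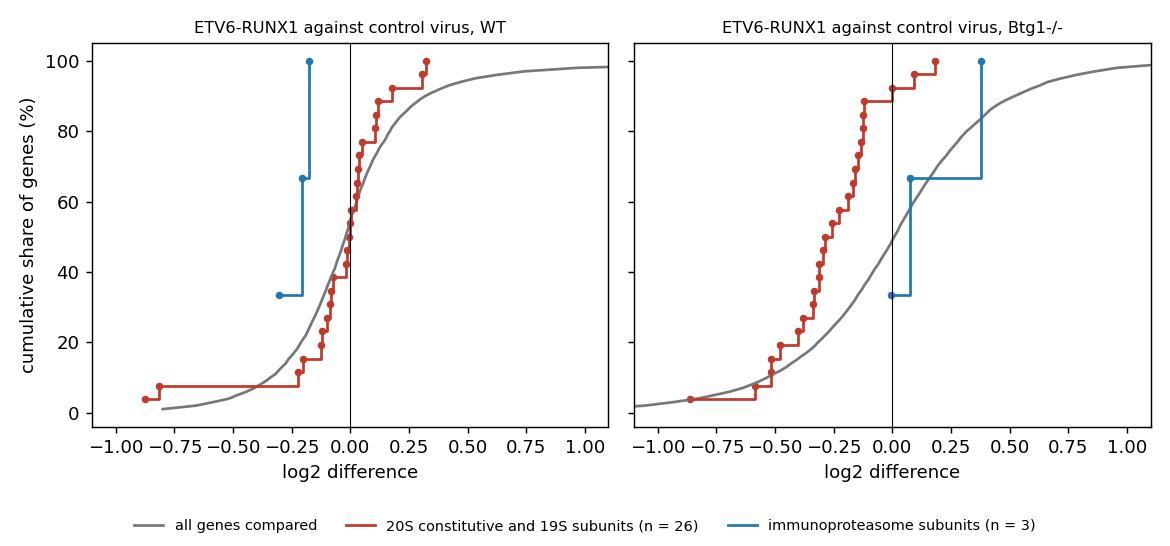
Cumulative share of genes in percent (vertical axis) against the log2 difference with ETV6-RUNX1 (horizontal axis) in wild-type cells (left) and Btg1-/- cells (right). The grey curve is all 5862 genes, red the 26 constitutive 20S and 19S subunits and blue the 3 immunoproteasome subunits. In Btg1-/- cells the red curve lies left of the grey one over most of its length, with 23 of 26 subunits below 0, and in wild type it crosses it, with 14 of 26 below 0.

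The 3 immunoproteasome subunits lay between -0.01 and 0.38 in this comparison. Psmb8 levels were 8.07 in wild type with control virus, 7.76 in wild type with ETV6-RUNX1, 7.998 in Btg1-/- with control virus and 8.38 in Btg1-/- with ETV6-RUNX1. Psmb8 was thus highest where both lesions were present, with a log2 difference of 0.38 (spread 0.40) against the Btg1-/- control. Psmb9 levels were 10.80, 10.62, 10.91 and 10.98 in the same order, with a difference of 0.08, and Psmb10 levels were 10.69, 10.48, 10.67 and 10.66, with a difference of -0.01. Each was lowest in wild type with ETV6-RUNX1, the culture that held the lowest level of 7 members, beside 21.9% of all genes.

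Differences within the same pair of arrays set these subunits against those they replace. With ETV6-RUNX1 in Btg1-/- cells, the log2 difference of Psmb8 exceeded that of Psmb5, the chymotrypsin-like subunit, by 0.86. That of Psmb9 exceeded that of the caspase-like Psmb6 by 0.27, and that of Psmb10 exceeded that of the trypsin-like Psmb7 by 0.16. In wild type the same 3 values were -0.20, -0.05 and -0.19. With loss of Btg1 they were -0.71, 0.15 and -0.05 under control virus and 0.35, 0.47 and 0.30 under ETV6-RUNX1. With both lesions against the wild-type control they were 0.14, 0.41 and 0.11. The Psmb8 pair rests in part on Psmb5, whose levels were 10.00, 9.91, 10.65 and 10.17 in the order above, so that the Btg1-/- control was its high culture. Psmb6 stood at 12.26, 12.14, 12.22 and 12.03, and Psmb7 at 11.96, 11.95, 11.99 and 11.82, both lowest with both lesions.

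**Figure D4:**
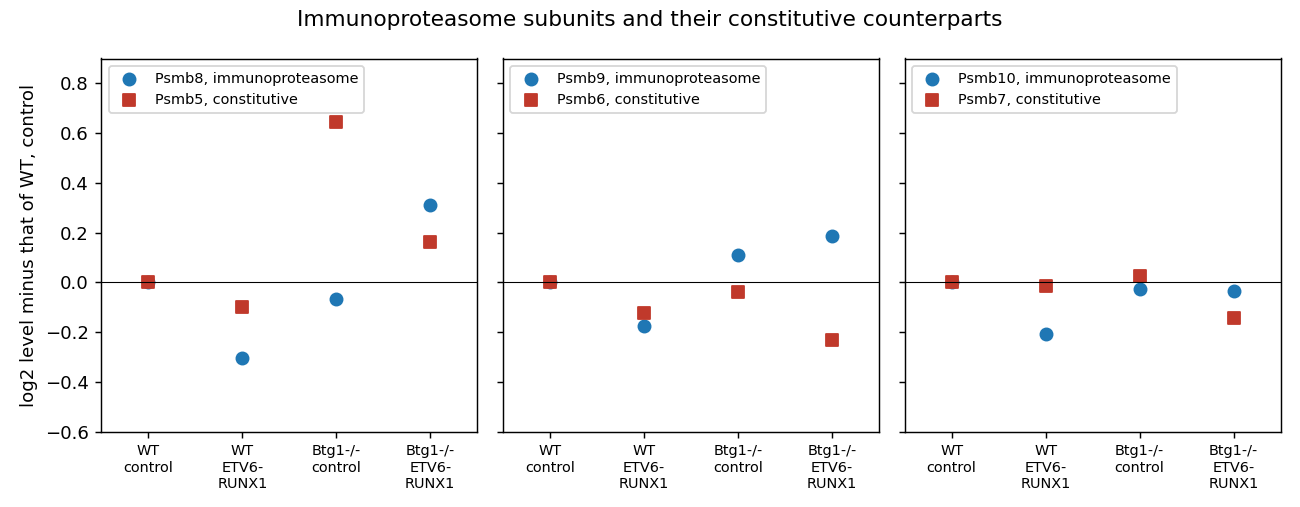
Log2 level relative to wild type with control virus (vertical axis) of each immunoproteasome subunit (blue circles) and the constitutive subunit it replaces (red squares) in the 4 cultures (horizontal axis), 1 array each. In Btg1-/- cells with ETV6-RUNX1 each blue point lies above its red point, and in wild type with ETV6-RUNX1 each lies below it.

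Loss of Btg1 with control virus went with few differences in proteasome genes. The 38 members had a median of 0.02, against 0.00 over all genes, and 16 of them lay below 0, beside 49.6% of all genes. Psmb5 was 1.56-fold higher (log2 difference 0.65, spread 0.13), the 1 member higher by at least 1.5-fold, beside 2.2% of all genes. Psmc6 was at least 1.87-fold lower, the 1 member lower by at least 1.5-fold, beside 1.88%. It stood at 6.91, 6.03, 5.76 and 5.97 in the order above, so that wild type with control virus was its high culture and the rest lay at or under the floor. All other members lay between -0.33 (Psmf1) and 0.16 (Psmd8). Lower by at least 20% were 2, beside 7.97%, and higher by at least 25% was Psmb5 alone, beside 7.93%. No member differed 2-fold, beside 0.307% lower and 0.358% higher.

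Under ETV6-RUNX1, cells without Btg1 had lower levels of most constitutive subunits and higher levels of the immunoproteasome subunits than wild type. The members had a median of -0.16, against 0.00 over all genes, and 30 of 38 lay below 0, beside 49.4% of all genes. The 26 constitutive and 19S subunits had a median of -0.19, with 23 below 0. Psmd1 (1.62-fold, log2 difference -0.69, spread 0.32) and Psmd12 (1.56-fold, -0.64, spread 0.30) were lower by at least 1.5-fold, beside 5.22% of all genes. Psmd14 (-0.55), Psmg3 (-0.51) and Psme3 (-0.46) followed. Psmb8 (1.53-fold, 0.61, spread 0.34) and Psmf1 (1.501-fold, 0.59, spread 0.39) were higher by at least 1.5-fold, beside 4.9%. Psmb9 differed by 0.36 and Psmb10 by 0.17. Lower by at least 20% were 9 members, beside 16%, and higher by at least 25% were 3, beside 15.9%. No member differed 2-fold, beside 0.938% lower and 0.648% higher. This comparison and that of ETV6-RUNX1 in Btg1-/- cells share the array with both lesions, so a value particular to that array enters both.

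Cells with both lesions were also set against wild type with control virus. The median was -0.24, against -0.01 over all genes, and 32 of 38 members lay below 0, beside 51.1% of all genes. Psmd12 (-0.84), Psme3 (-0.62) and Psmc6, at least 1.87-fold lower, were lower by at least 1.5-fold, beside 7.95% of all genes. Psmb8 had the largest higher value with 0.31, followed by Psmb9 with 0.18, and no member was higher by at least 1.5-fold, beside 8.03%. Lower by at least 20% were 9 members, beside 19.9%, and none was higher by at least 25%, beside 17.6%. No member differed 2-fold, beside 1.86% lower and 2.64% higher.

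Crossing both factors lets the ETV6-RUNX1 effect be set side by side between genotypes, here as a size without a test. The effect in Btg1-/- cells minus that in wild type had a median of -0.17 over the members, against 0.00 over all genes, and 29 of 38 members lay below 0, beside 49.7% of all genes. It was lower by at least 1.5-fold for Psmd1 (-0.77), Psmd14 (-0.71), Psmd12 (-0.66) and Psmg3 (-0.64), beside 9.96% of all genes. It was higher by as much for Psmf1 (0.92), Psmc6 (0.88) and Psmb8 (0.68), beside 9.08%, although for Psmc6 both Btg1-/- values lay below the floor. At the smaller fold 13 members were lower by at least 20% and 3 higher by at least 25%, each beside 21.3%. No member differed 2-fold, beside 2.63% lower and 1.96% higher. Across the 38 members the ETV6-RUNX1 effects in the 2 genotypes, which share no array, had a Pearson r of -0.12 and a Spearman rho of -0.15. Across all 5862 genes r was 0.34 and rho 0.23. Genes are not independent replicates, and the 4 arrays share 1 normalization.

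Genes of other large complexes were set beside the proteasome genes. With ETV6-RUNX1 in Btg1-/- cells, the 47 measured cytosolic ribosomal protein genes had a median of 0.00 with 23 below 0, and the 32 measured NADH dehydrogenase subunit genes had a median of -0.10 with 23 below 0. The 38 proteasome genes had a median of -0.23 with 31 below 0 in the same comparison. With loss of Btg1 under ETV6-RUNX1, 28 of 32 NADH dehydrogenase genes lay below 0 (median -0.12) and 32 of 47 ribosomal protein genes (-0.07), beside 30 of 38 proteasome genes (-0.16). With both lesions against the wild-type control, 25 of 32 NADH dehydrogenase genes lay below 0 (-0.17) and 39 of 47 ribosomal protein genes (-0.09), beside 32 of 38 proteasome genes (-0.24). With loss of Btg1 under ETV6-RUNX1 and with both lesions, most genes of the other complexes thus also lay below 0. In these 2 comparisons 49.4% and 51.1% of all genes lay below 0. With ETV6-RUNX1 in Btg1-/- cells this held for the NADH dehydrogenase genes but not the ribosomal protein genes, beside 48.8% of all genes. With loss of Btg1 under control virus, 35 of 47 ribosomal protein genes already lay below 0 (-0.07), beside 49.6% of all genes. In that comparison 18 of 32 NADH dehydrogenase genes (-0.04) and 16 of 38 proteasome genes (0.02) did so. Each comparison describes 2 arrays, and the difference between the groups was not tested.

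Partners of the proteasome that the naming rule does not take in were listed apart. Of 11 measured partners, 9 lay below 0 with ETV6-RUNX1 in Btg1-/- cells, beside 48.8% of all genes, with a median of -0.26 against 0.01. Of them 2 were lower by at least 1.5-fold, beside 8.44% of all genes. Usp14, a deubiquitinase bound to the base of the particle, had levels of 8.39 in wild type with control virus, 8.37 in wild type with ETV6-RUNX1, 8.62 in Btg1-/- with control virus and 7.63 in Btg1-/- with ETV6-RUNX1. It differed by -0.99 (spread 0.37) and was lowest where both lesions were present. Uchl5, a further deubiquitinase of the particle, differed by -0.62, its anchor and ubiquitin receptor Adrm1 by -0.50, and the core maturation factor Pomp by -0.26. In wild type 9 of 11 lay below 0 as well, beside 54.2% of all genes, but by less, with a median of -0.05 and none past 1.5-fold.

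Nfe2l1 codes for the transcription factor that raises proteasome genes when proteasome activity is impaired. Its levels were 9.04, 8.90, 9.12 and 8.61 in the order above, lowest with both lesions, and it differed by -0.51 (spread 0.35) with ETV6-RUNX1 in Btg1-/- cells. Nfe2l2 lay below the floor on all arrays, between 4.04 and 5.26. The other 5 measured genes of the transcription list (Nfya, Nfyb, Nfyc, Foxm1 and Stat3) lay between -0.06 and 0.28. Of the ubiquitin genes, Rps27a, a fusion of ubiquitin with a ribosomal protein, differed by -1.06 and the polyubiquitin gene Ubb by 0.04.

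**Figure D5:**
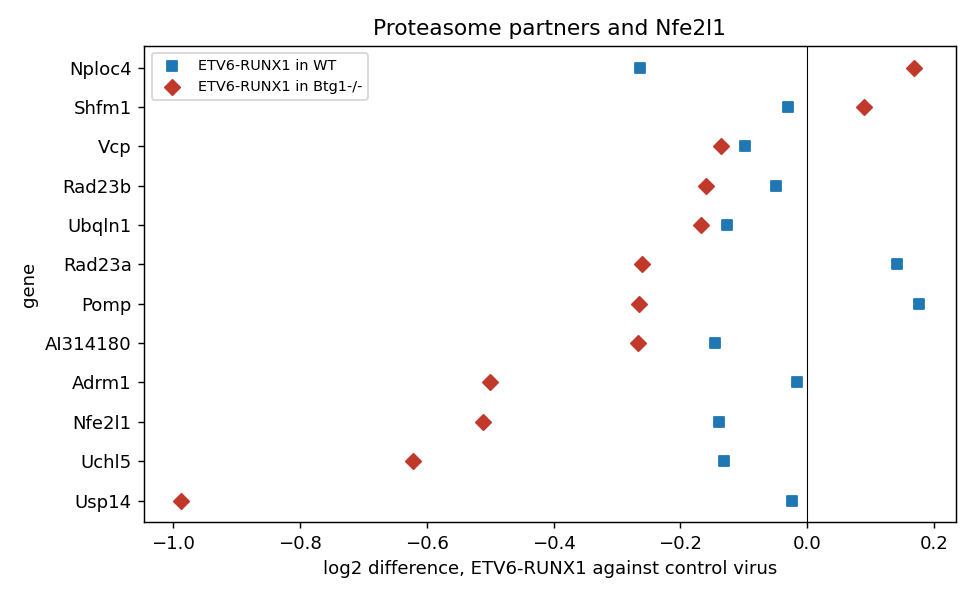
Log2 difference with ETV6-RUNX1 against control virus (horizontal axis) of the 11 measured proteasome partners and of Nfe2l1 (vertical axis), in wild type (blue squares) and in Btg1-/- cells (red diamonds), 1 pair of arrays each. Usp14 at -0.99 and Uchl5 at -0.62 lie farthest left in Btg1-/- cells, and the wild-type points lie between -0.26 and 0.18.

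Genes of MHC class I presentation and its control by interferon were the natural companions of the immunoproteasome. With ETV6-RUNX1 in Btg1-/- cells, 13 measured genes of this list had a median of 0.18, with 3 below 0, beside 48.8% of all genes, and 1 lower by at least 1.5-fold, beside 8.44%. With ETV6-RUNX1 present, loss of Btg1 gave a median of 0.34 with 2 below 0, beside 49.4% of all genes. Psmb9, Tap1, Psmb8 and Tap2 lie next to each other in this order on chromosome 17, and the Tap genes code for the transporter that carries peptides into the endoplasmic reticulum. Tap1 levels were 7.02, 7.06, 7.65 and 7.46 in the order above, so that both Btg1-/- cultures were high. Tap2 levels were 9.15, 9.04, 9.20 and 9.38, which puts the 4 cultures in the same order as Psmb9 does.

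Irf1, an interferon-induced transcription factor, differed with ETV6-RUNX1 by -0.32 in wild type and by 0.09 in Btg1-/- cells. Irf8, a factor of B and myeloid cells, differed by -0.12 and 0.55. Nlrc5, the activator of MHC class I genes, listed by the array table under an older name, stood at 7.43, 7.16, 8.01 and 8.03, high in both Btg1-/- cultures. Past 1.5-fold, Calr, the chaperone calreticulin, differed by -1.03 with ETV6-RUNX1 in Btg1-/- cells.

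Markers of cell types differed between the cultures as well, and not all lists followed the pattern of the proteasome genes. Of 9 measured B-cell progenitor markers, all lay above 0 with ETV6-RUNX1 in Btg1-/- cells (median 0.36), beside 2980 of 5862 genes. The largest value was that of Rag1 at 1.47, whose Btg1-/- control was low, at 9.62 against 10.79 in the wild-type control. Sums of linear levels over a list are carried by its brightest probes. The list of 12 B-cell genes on the array summed to 48191, 45441, 46494 and 57669 on the linear scale in the order above, highest with both lesions. The 11 mast cell and basophil markers summed to 33524, 80137, 48696 and 78298, high in both ETV6-RUNX1 cultures, and of them Mcpt8 lay below the floor throughout. Pax5, a defining B-cell factor, was below it on all arrays too. The 9 megakaryocyte genes (467, 1095, 590 and 1205) and the 9 granulocyte and monocyte genes (438, 1112, 620 and 968) had higher sums in the ETV6-RUNX1 cultures, with 5 and 4 of them below the floor on all arrays. All 5 T and NK cell genes were below the floor on all arrays, and on each array most of the 18113 genes were below it. The dendritic cell list summed to 695, 475, 975 and 407, with 4 of 6 genes below the floor on all arrays. Its 2 measured genes went opposite ways with both lesions. Cd74 stood at 8.75, 8.19, 9.52 and 7.14, lowest there, and H2-Ab1 at 7.77, 7.23, 7.56 and 7.85, highest there. The part of these shifts in the proteasome values was not tested. In these bulk samples, fewer cells of a type and less RNA per cell cannot be told apart.

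The motifs searched above were also counted over the upstream sequences of the members. A promoter entry was found for 32 of the 38 members that entered the comparisons, and 21 of them were constitutive core or 19S subunits. Among these 21, CCGGAAG of ETS factors was held by 7 and TGACNNNGC by 4, against 16.9% and 11.9% of the promoters of 3834 genes at or above the floor and 7.05% and 10.2% of all 27018 promoters. CCAAT was held by 7 of 21, against 37.9% and 34.5%, and TGTGGT by 2 of 21, against 11.3% and 14.2%. The IRF-type element was held by 2 of 21, against 2.61% and 3.04%, and by none of the 3 immunoproteasome genes. A match is a string of letters in this window only, and not a shown binding site.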

How the data were processed

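RNA from 4 cultures was measured on Illumina MouseRef-8 arrays, 1 per group. The deposited values are log2 levels, normalized by the authors with RMA in ArrayStar according to headers and the submitters' processing notes. An overall shift of an array is lost in this step. How probes of a gene were combined and the genome build are not given in the sources used here. Fold ratios deposited by the authors for 5 comparisons equaled 2 raised to those log2 differences within 1e-05 (log2). Non-normalized values in 8 columns were left out, since their names could not be tied to a sample.

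Differences of log2 levels were computed here after raising values below 6 to 6, for genes whose mean level reached 6, a filter chosen after the data were seen. With 1 array per group no test was made, and the number of arrays limits the precision. The spread is 1.4826 times the median absolute deviation. Members were named by a rule: all immunoproteasome subunits and their counterparts, every member past 1.5-fold, otherwise the 3 most extreme each way, and the highest and lowest of each group. Other members were named after their values were seen, to cover each group. Members and lists were chosen with earlier results of these data known, and the ribosomal and NADH dehydrogenase groups, taken by name pattern, were added after the data were seen. Gene names of 18113 rows matched 14304 RefSeq symbols, and older names were matched through synonyms. Upstream sequences came from RefSeq tables of GRCm38.p6, with the first listed start per gene and 250 bases scanned. Alternatives were floors of 5 and 7 and none, 3 other scalings, other folds and other choices of members. Python 3.11.15, numpy 2.4.6, pandas 2.3.3 and matplotlib 3.10.9 were used, and the calculations were tested on simulated data.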

Additional observations from a re-analysis of the deposited data

Results flagged for a closer look

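The listed values are those whose effects of the same contrast ran in opposite directions in the 2 backgrounds, each by at least 1.2-fold. With 1 array per group this difference was not tested. Psmb8 differed with ETV6-RUNX1 by -0.30 in wild type and by 0.38 in Btg1-/- cells. Psmd14 differed by 0.30 in wild type and by -0.40 in Btg1-/- cells. Psmf1 differed with loss of Btg1 by -0.33 under control virus and by 0.59 under ETV6-RUNX1.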

How the results depend on the processing

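No paired analysis was possible because each group has 1 array. The medians over the members stayed within 0.1 of their values under all 10 alternatives in each of the 6 comparisons, the difference of effects included. They ranged from -0.257 to -0.221 for ETV6-RUNX1 in Btg1-/- cells and from -0.055 to -0.013 in wild type. They ranged from 0.012 to 0.030 for loss of Btg1 with control virus, from -0.187 to -0.140 with ETV6-RUNX1, from -0.25 to -0.222 for both lesions and from -0.199 to -0.146 for the difference of effects. Leaving out genes of mean level under 8 and leaving out immunoproteasome subunits were added after seeing the data. The former moved the median of 19S subunits in the difference of effects to -0.26.

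Counts past a fold depended on the fold. At 2-fold no member was called in any comparison. At a fold equal to 20% lower or 25% higher, 13 members instead of 4 were lower with ETV6-RUNX1 in Btg1-/- cells, 9 instead of 2 with loss of Btg1 under ETV6-RUNX1, 9 instead of 3 with both lesions, 13 instead of 4 in the difference of effects and 2 instead of 1 with loss of Btg1 under control virus. Higher members at that fold were 1 instead of 0 with ETV6-RUNX1 in either genotype. In wild type 3 members were lower by 1.5-fold with ETV6-RUNX1, but 1 with a floor of 7 or the floor on all 4 arrays, and 0 at a mean level of at least 8. The 1 member lower with loss of Btg1 under control virus became 0 under those same 3 settings. Of the 2 higher with loss of Btg1 under ETV6-RUNX1, 1 was left after subtracting the running median, with 20S and 19S and immunoproteasome subunits only, without immunoproteasome subunits or at a mean level of at least 8, where the 3 higher in the difference of effects became 1. With accessory genes left out, 2 instead of 4 members were lower with ETV6-RUNX1 in Btg1-/- cells. Members near the floor, Psmc6, Psmd6 and Psmd9, give only bounds in some comparisons.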
